A study of Mus musculus with 66 samples.

Results

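Neuron-expressed genes of the cortex were described by the histone marks over their gene bodies. The 42 members were taken from a list of gene names with no threshold on any value, a list drawn up with earlier results of these data known. All 42 were found among the 21938 protein-coding genes of the GENCODE vM21 annotation of GRCm38. They comprised synaptic vesicle and active zone genes, postsynaptic scaffolds and kinases, the neuronal cytoskeleton, axonal motors, ion channels and calcium pumps, RNA-binding proteins and surface proteins. Their gene bodies ran from 5.20 kb (Thy1) to 1526 kb (Rbfox1), with a median of 122 kb, against 17.4 kb for all protein-coding genes.

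The tissue was prefrontal cortex (PFC). It was taken from male and female adolescents of DBA/2J, an inbred mouse strain. Mice received either water or ethanol at 4 g/kg (25% w/v) by gavage, on an intermittent schedule that began on postnatal day (PND) 29 and ended on PND 42. Cortex was dissected 24 h later. Each pool held tissue of 3 mice, and each sex had 6 ethanol and 5 water pools. Chromatin of each of the 22 pools was precipitated for H3K9me3 and for H3K36me3, which gave 44 island lists, and an input library of the same pool served as the reference. Whole tissue was used, so fewer neurons in a pool and less mark per neuron cannot be told apart.

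H3K36me3, trimethylation of lysine 36 of histone H3, is deposited behind elongating RNA polymerase II and lies over the bodies of transcribed genes, typically more toward their ends. H3K9me3, trimethylation of lysine 9, marks heterochromatin and silenced repeats. The genes described here are expressed by neurons of the cortex, though not all of them by neurons alone. Oligodendrocytes, astrocytes and microglia of the same tissue express other marker genes. Expression itself was not measured in these libraries.

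An island is a run of 200 bp windows in which SICER found reads to be dense. Some listed islands had fewer reads than the scaled input. The H3K36me3 lists held 1700043 to 4788006 ChIP reads in islands over 69.1 to 126 Mb, and the H3K9me3 lists held 5726429 to 14223555 reads over 129.96 to 217 Mb. Median fold over input per library was 1.05 to 1.71 for H3K36me3 and 1.17 to 1.71 for H3K9me3. Protein-coding gene bodies held between 20.1 and 38.8% of the H3K36me3 island length. This share was 33.1 ± 2.97% (SD, n = 5) in male water and 25.2 ± 5.51% (n = 6) in male ethanol libraries, where replicate 5 stood apart at 35.5% and the other replicates lay between 20.9 and 26.3%. In females it was 32.0 ± 6.22% with water and 27.8 ± 4.16% with ethanol.

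Recurrent H3K9me3 in these genes lay mostly on repeat-masked sequence, and part of it on copies of a shared word. Within the gene bodies, 34 segments in 14 members were covered by an H3K9me3 island in at least 11 of the 22 libraries. The 24-base word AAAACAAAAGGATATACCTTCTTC, found by searching both strands, occurred in 16 of these 34 segments and in 10 of the 14 members. The median repeat share of the 34 segments was 100%, with exceptions such as a segment of Scn8a (0% repeats) and another of Ank3 (46.2%). No other word of that length was in more of these segments, and it was found by looking at the segments, so it is a description. Of 4025 consecutive windows of 2400 bp in the 42 gene bodies, 18 (0.447%) held the word, and the 21 chromosomes of GRCm38 held 15436 exact copies. The lines below give the word in capitals with its flanks in the 5 members whose segment holding it was covered in most libraries and longest, written on the strand on which the word reads forward. Each lies in a segment that all 22 H3K9me3 libraries covered.
Celf2, chr2:7417508-7417607, + strand: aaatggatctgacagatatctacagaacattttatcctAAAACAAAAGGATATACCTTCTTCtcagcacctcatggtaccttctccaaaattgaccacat
Scn1a, chr2:66432015-66432114, + strand: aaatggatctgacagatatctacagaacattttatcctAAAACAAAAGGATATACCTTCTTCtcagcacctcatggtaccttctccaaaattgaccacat
Pclo, chr5:14550374-14550473, - strand: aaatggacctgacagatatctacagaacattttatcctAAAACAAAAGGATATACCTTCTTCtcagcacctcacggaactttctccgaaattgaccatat
Ank2, chr3:127143241-127143340, + strand: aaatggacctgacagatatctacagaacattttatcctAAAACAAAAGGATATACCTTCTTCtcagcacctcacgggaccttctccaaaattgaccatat
Map2, chr1:66274942-66275041, - strand: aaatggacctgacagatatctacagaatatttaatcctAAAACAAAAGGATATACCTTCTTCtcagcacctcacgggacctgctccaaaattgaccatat

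The Scn1a stretch was identical to the Celf2 stretch over all 100 bases, and the Ank2, Pclo and Map2 stretches matched it at 96, 94 and 93 bases. All 5 segments were intronic, with 0 exonic bases. They ran from 4000 bp in Map2 to 5800 bp in Celf2, and repeat-masked sequence made up 99.9 to 100% of each. The authors kept only H3K9me3 reads that mapped to a single place, so reads that matched several copies would have been dropped. How far this affected these segments was not measured.

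Of segments covered by H3K36me3 in at least 11 libraries (recurrent), 58 in 28 members overlapped no recurrent H3K9me3 segment. Exonic bases were in 13 of the 58. The lines below show coding sequence, in capitals, from recurrent H3K36me3 segments of Gabbr1, Kif5a and Kif1b, each on the strand of the gene. They are the 3 members of highest median H3K36me3 coverage whose segment of that kind held at least 30 coding bases.
Gabbr1, chr17:37054762-37054881, + strand: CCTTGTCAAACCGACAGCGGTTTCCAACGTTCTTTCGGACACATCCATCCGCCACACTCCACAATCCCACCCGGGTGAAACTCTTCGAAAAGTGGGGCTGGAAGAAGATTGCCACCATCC
Kif5a, chr10:127242672-127242791, - strand: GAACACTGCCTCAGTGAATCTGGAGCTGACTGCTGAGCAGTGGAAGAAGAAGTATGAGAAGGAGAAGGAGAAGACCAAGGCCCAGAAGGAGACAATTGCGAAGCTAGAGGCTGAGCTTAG
Kif1b, chr4:149192570-149192689, - strand: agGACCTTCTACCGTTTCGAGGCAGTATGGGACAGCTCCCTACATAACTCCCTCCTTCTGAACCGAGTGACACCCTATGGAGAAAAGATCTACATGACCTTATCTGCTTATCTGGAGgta

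The Gabbr1 segment (2000 bp, chr17:37053601-37055600) was covered in 14 of 22 H3K36me3 libraries, the Kif5a segment (2400 bp, chr10:127242601-127245000) in 21, and the Kif1b segment (4600 bp, chr4:149191601-149196200) in 17. None of these 3 genes had an H3K9me3 island in any library, so the 3 segments had none either. The median fold over input of the segment was 1.56 in Gabbr1, 2.00 in Kif5a and 1.92 in Kif1b.

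Coverage of the gene bodies by H3K36me3 was measured as the percent of bases inside a listed island. An H3K36me3 island was listed in at least 1 library for 39 of 42 members (92.9%, against 58.8% of all protein-coding genes) and in at least 11 libraries for 33 members (78.6%, against 25.3%). The mean over members and libraries was 3.73%, against 2.64% for all protein-coding genes, and it was above that of all genes in 18 of 22 libraries. Because the members are long genes, a level per length is given too. The median member had 0.193 island reads per M (per 1000000 island reads of the library) per kb, against 0.0380 for all genes.

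**Figure D1:**
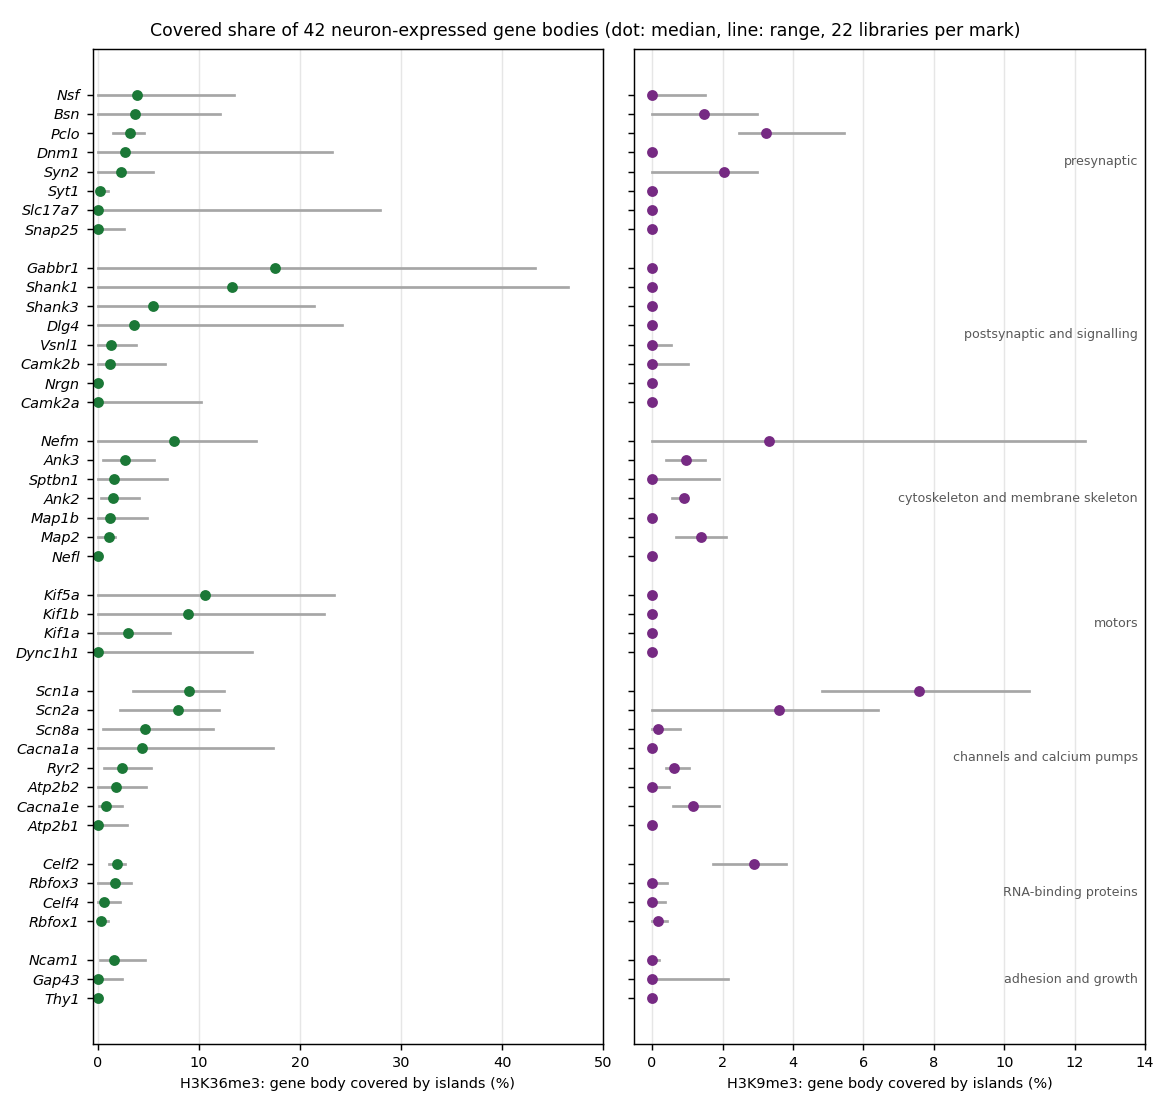
Percent of each of the 42 gene bodies covered by listed H3K36me3 islands (left) and H3K9me3 islands (right), with genes grouped by role. Dots are medians and lines ranges over 22 libraries per mark, on axes of different length. Gabbr1 and Shank1 lead for H3K36me3 with medians of 17.5 and 13.3%, and Scn1a leads for H3K9me3 with 7.59%.

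Of 24 other neuronal genes, 23 had an H3K36me3 island in at least 1 library and 16 in at least 11. Their mean coverage was above that of the members, at 6.32% against 3.73%, and so was their median per length, at 0.243 island reads per M per kb. Of 22 glial and endothelial markers, 11 had an island in at least 1 library and 3 in at least 11. No H3K36me3 island recurred in 11 libraries over any of the 11 markers of the oligodendrocyte lineage. The members' mean H3K36me3 coverage was above that of the glial and endothelial markers in all 22 libraries. The glial and endothelial genes were shorter (median 24.3 kb), and per length their median was 0.00924 island reads per M per kb. Olfactory receptor genes, which are mostly silent in cortex, had an H3K36me3 island in at least 11 libraries for 28 of 1135 genes.

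The 2 members of highest H3K36me3 coverage were postsynaptic, although 2 of the 8 postsynaptic and signalling genes had a median of 0. Gabbr1, a subunit of the GABA-B receptor (chr17, 29.1 kb), had a median of 17.5%. Its values ran from 0 to 43.3%, with islands in 15 of 22 libraries. Shank1, a scaffold of excitatory synapses, had a median of 13.3%. Its male water libraries had 5.56, 18.7, 20.3, 15.9 and 14.3% and its female water libraries 9.54, 41.7, 0, 0 and 46.5%. With ethanol, Shank1 ranged from 0 to 21.5% (median 4.17%) among males, and its highest female value was 27.4% (median 13.3%), so that all groups overlapped. Shank3, of the same family, had a median of 5.44% (0 to 21.4%, 16 libraries). Dlg4, the main scaffold of the postsynaptic density, had 3.60% (18 libraries). Vsnl1, a calcium sensor, had 1.35%, and Camk2b, a subunit of calcium/calmodulin kinase II, 1.24%. Camk2a, the other main subunit of that kinase in forebrain neurons, had islands in 7 libraries and a median of 0. Nrgn, which binds calmodulin in dendrites, had none in any library. The ranges of Gabbr1, Shank1 and Shank3 overlapped widely, so their order is not beyond the spread between libraries.

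All 3 kinesins were covered in most libraries. Kif5a, the heavy chain of a conventional kinesin, had a median of 10.6% (0 to 23.4%) with islands in 21 of 22 libraries. Its male water values were 10.6, 5.84, 15.4, 6.91 and 13.3%, and its male ethanol values ran from 0 to 10.6% with a median of 6.91%. These ranges overlapped, and the 1 library without an island was male ethanol replicate 1. Kif1b had 8.91% (20 libraries) and Kif1a 3.01% (19 libraries), both being carriers of synaptic vesicle precursors. Dync1h1, the heavy chain of cytoplasmic dynein, had islands in 10 libraries and a median of 0. No H3K9me3 island was listed in any library over these 4 motor genes.

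Ion channel genes had H3K36me3 islands in nearly every library. Scn1a, Scn2a and Scn8a, which encode the sodium channels of cortical neurons, had medians of 9.06, 7.98 and 4.71%, with islands in all 22 libraries. Cacna1a, the pore of the P/Q-type calcium channel of nerve terminals, had 4.41% (21 libraries). Ryr2, a calcium release channel of the endoplasmic reticulum, had 2.44% (22 libraries). Atp2b2, a plasma membrane calcium pump, had 1.81%, and Cacna1e, the R-type calcium channel, 0.790%. Atp2b1, another pump of that kind, had islands in 4 libraries.

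Of the presynaptic genes, 6 of 8 had islands in at least 11 libraries. Nsf, the ATPase that takes SNARE complexes apart, had a median of 3.93% (17 libraries). Bsn and Pclo, large scaffolds of the active zone, had 3.71% (21 libraries) and 3.18% (22 libraries). Dnm1, the dynamin of vesicle endocytosis, had 2.67%, and Syn2, a synapsin, 2.31%. Syt1, the calcium sensor of vesicle release, had 0.195%. Snap25, a SNARE protein, had islands in 3 libraries, and Slc17a7, the vesicular glutamate transporter, in 5, both with a median of 0. Part of the Syn2 body (21.7%) overlaps the gene model Gm17482 and 7.01% overlaps Timp4, and these cannot be separated.

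Of the cytoskeleton genes, Nefm, the medium neurofilament subunit, had a median of 7.57% (19 libraries). The ankyrins Ank3 and Ank2, which anchor membrane proteins, had 2.67 and 1.54% with islands in all 22 libraries. Sptbn1, a spectrin that binds ankyrin, had 1.66%, and the microtubule-associated Map1b and Map2 had 1.26 and 1.12%. Nefl, the light neurofilament subunit, had no island in any library although its gene model lies wholly inside that of Nefm. The RNA-binding proteins Celf2, Rbfox3 (NeuN), Celf4 and Rbfox1 had 1.95, 1.75, 0.651 and 0.354%. Of the surface and growth proteins, the adhesion molecule Ncam1 had 1.65% in all 22 libraries, Gap43 had islands in 2 libraries, and Thy1 in none.

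The 9 members with a median of 0 included several of the best known neuronal markers, and all 4 members under 15 kb were among them. Their bodies ran from 5.20 to 112 kb, against 29.1 to 1526 kb for the 33 members with islands in at least 11 libraries. Across the 42 members, Spearman's rho between gene length and the number of libraries with an H3K36me3 island was 0.69, whereas rho between length and mean coverage was -0.17. These are descriptions over genes that share the same libraries. No listed island over a gene does not show that the mark is absent there.

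H3K9me3 was rarer in the same genes. In 17 of 42 members no H3K9me3 island was listed in any of the 22 libraries, and in 14 an island was listed in at least 11 (33.3%, against 15.5% of all protein-coding genes). Of the other neuronal genes, 8 of 24 (33.3%) had one in at least 11, with a mean coverage of 0.596%. The members' mean coverage was 0.769%, against 2.14% for all genes, and it was below that of all genes in every one of the 22 libraries. Olfactory receptor genes had a mean of 2.78%. Against the glial and endothelial markers, with a mean of 0.0606%, the members were higher in all 22 libraries. Those markers are shorter, with a median length of 24.3 kb against 122 kb, and over the 42 members Spearman's rho of gene length was 0.64 with H3K9me3 coverage and 0.76 with the number of libraries. Per length, the median was 0.00143 island reads per M per kb for the members, and 0 for the markers and for all genes. Median coverage was 0.0253% over the members and 0 over all genes, so the median went the other way from the mean. All 8 members with H3K9me3 islands in every library had bodies of 170.1 kb or more. The 8 were Pclo, Map2, Ank2, Ank3, Cacna1e, Scn1a, Ryr2 and Celf2.

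Scn1a, the sodium channel of inhibitory interneurons, had the highest median H3K9me3 coverage at 7.59%. In male water libraries its values were 6.00, 9.53, 7.64, 9.06 and 8.00%, and in female water libraries 7.29, 5.29, 7.88, 4.82 and 6.82%. With ethanol the lowest, median and highest were 5.53, 7.53 and 10.7% in males and 5.41, 7.70 and 8.47% in females. These ranges overlapped in both sexes.

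Scn2a, the sodium channel of excitatory neurons, had a median H3K9me3 coverage of 3.61%. Its male water values were 6.14, 6.41, 2.45, 5.86 and 2.45% and its female water values 3.41, 3.00, 1.77, 0 and 2.32%. With ethanol it ranged from 0.409 to 6.27% (median 4.77%) in males and from 1.09 to 5.73% (median 4.30%) in females. Groups again overlapped, and 1 female water library had no island. Counting only islands with a false discovery rate (FDR) up to 0.01, Scn2a kept an H3K9me3 island in 7 libraries and Scn1a in 21. Ank3 then kept one in 5 libraries. Members with one in at least 11 libraries were 8 rather than 14.

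Nefm had a median H3K9me3 coverage of 3.31%. Male water libraries had 2.37, 2.84, 0, 5.21 and 3.31%, and female water libraries 5.68, 0, 2.84, 0 and 8.05%. Male ethanol libraries ranged from 0 to 12.3% with a median of 10.2%, and 4 of the 6 were above every male water library. Pclo had a median of 3.24% and Celf2, an RNA-binding protein with a body of 969.9 kb, 2.89%. Pclo had 4.99, 3.21, 3.50, 3.27 and 4.19% in male water libraries and 2.47, 2.52, 2.70, 2.75 and 5.11% in female water libraries. With ethanol its lowest and highest were 3.04 and 5.45% in males and 2.93 and 4.88% in females, and each group overlapped the others. Celf2 had 3.42, 2.95, 3.44, 2.35 and 2.33% in male water libraries and 2.74, 1.73, 3.13, 1.73 and 3.36% in female water libraries. With ethanol the male Celf2 values lay between 2.62 and 3.81%, and the female values between 2.08 and 3.44%. Neither gene was without H3K9me3 in any library.

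The remaining members with a median above 0 were Syn2 (2.04%), Bsn (1.48%), Map2 (1.38%), Cacna1e (1.15%), Ank3 (0.970%), Ank2 (0.90%), Ryr2 (0.614%), Scn8a (0.170%) and Rbfox1 (0.164%). In Bsn and Scn8a the median fold over input of the recurrent H3K9me3 segment was 0.677 and 0.661, below the input level. In all, 6 of 34 recurrent H3K9me3 segments and 8 of 79 recurrent H3K36me3 segments had a median fold below that of input. Among the latter were the most recurrent H3K36me3 segments of Scn8a (0.836, 17 libraries) and Ncam1 (0.951, 19 libraries). Another 11 members had H3K9me3 islands in 1 to 10 libraries.

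The marks were next compared within each pool, as H3K36me3 minus H3K9me3 coverage in percentage points. Of 39 members tested, 29 differed at an adjusted p of 0.05 (limma, Benjamini-Hochberg adjustment over 13805 genes), where 51.1% of all genes did. H3K36me3 was higher in 27 of the 29. No H3K9me3 island was listed in any library for 17 of 42 members. Of these, Nrgn, Nefl and Thy1 had no H3K36me3 island either and were not tested. The others could differ toward higher H3K36me3 only, and for them the count does not compare the marks. How many of the 27 they make up was not counted. The median difference was 1.90 points over the members and 0.870 points over all genes tested. The largest was 18.2 points in Gabbr1, followed by Shank1 with 13.9 points, Kif5a with 10.04 and Kif1b with 9.53. None of these genes had an H3K9me3 island in any library. Each value is therefore the mean H3K36me3 coverage of the gene and compares no marks. H3K9me3 was higher in Celf2 (-0.94 points, adjusted p = 0.000257) and in Map2 (-0.65 points, adjusted p = 0.00451). The difference in Celf2 was 0.14 and not past the threshold on a log2 scale of reads per M per kb. The authors joined windows across a gap of 600 bp for H3K36me3 and of 400 bp for H3K9me3, which can widen H3K36me3 islands.

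Islands of both marks often sat on the same bases of the same pool. Over all members and pools, 51.8% of the H3K9me3-covered length was also covered by H3K36me3, and 21.5% of the H3K36me3-covered length by H3K9me3. In Map2, 94.1% of the H3K36me3-covered length lay under H3K9me3, and in Celf2, Pclo and Scn1a 65.2, 60.1 and 54.8%. In Gabbr1, Shank1, Kif5a and Kif1b it was 0, as these had no H3K9me3 island. Counting only H3K36me3 outside H3K9me3 islands of the pool, the median of Map2 went from 1.12 to 0%, that of Scn1a from 9.06 to 4.00% and that of Celf2 from 1.95 to 0.629%. Members with H3K36me3 in all 22 libraries were then 6 rather than 10.

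Both marks lay on repeats more than the gene bodies as a whole did, and H3K9me3 more than H3K36me3. Repeat-masked bases made up 23.1% of the 42 gene bodies, 54.7% of the H3K36me3-covered length and 94.5% of the H3K9me3-covered length. Exons made up 5.25% of the bodies, 6.28% of the H3K36me3-covered length and 0.208% of the H3K9me3-covered length. By member, the exon share of the covered length was above that of the body in 12 of 39 for H3K36me3. For H3K9me3 this held in 0 of 25, so the pooled H3K36me3 value does not describe most members. Of 79 recurrent H3K36me3 segments in 32 members, 21 overlapped a recurrent H3K9me3 segment. Those 21 had no exonic base, a median repeat share of 99.9% and a median fold over input of 1.2. The other 58 had a median repeat share of 45.7% and a median fold of 1.5, and 13 of them held exonic bases. The shared word given above was in 15 of the 21 and in 0 of the 58. All 5 H3K36me3 segments present in all 22 libraries were among the 21. None of the 34 H3K9me3 segments held an exonic base.

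**Figure D2:**
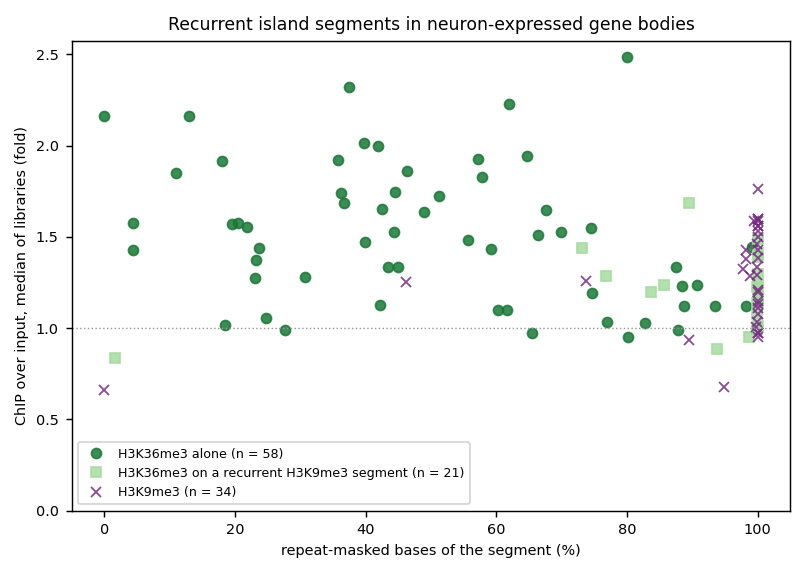
Each point is a segment of a member's gene body covered in at least 11 of 22 libraries. The x axis gives its repeat-masked bases (%) and the y axis the median fold of ChIP over input, with the dotted line at 1. H3K9me3 segments (crosses, n = 34) gather at 100% repeats, as do most H3K36me3 segments that overlap them (squares, n = 21). The other H3K36me3 segments (circles, n = 58) spread from 0 to 99%. Of these, 38 had no H3K9me3 island in any library, and the rest had one in some libraries.

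Along the gene body, H3K36me3 coverage was higher toward the end. With each body cut into 10 equal bins from start to end, mean coverage over 22 libraries was 2.44 ± 0.987% (SD) in the first 2 bins and 4.45 ± 2.59% in the last 2, and the last 2 were higher in 19 of 22 libraries. The highest bin was bin 8, at 7.10 ± 4.06%. Members differed in this: the last 2 bins were higher in 22 members, lower in 14 and equal in 6. Scn2a had 1.59% at the start and 22.0% at the end, Dlg4 0 and 20.1%, Kif1b 6.37 and 26.3%, and Gabbr1 1.24 and 20.7%. Shank1 ran the other way, with 18.8% at the start and 3.52% at the end. The recurrent H3K36me3 segments near the end of Scn2a were 100 and 99.1% repeats, with H3K9me3 islands in up to 15 and 8 libraries. The profile was not computed outside H3K9me3 islands. H3K9me3 was higher in the first 2 bins (1.17 ± 0.298%) than in the last 2 (0.564 ± 0.257%) in all 22 libraries. The highest H3K9me3 bins were bin 8 (1.62 ± 0.561%) and bin 1 (1.58 ± 0.372%). By member, H3K9me3 was lower in the last 2 bins in 11, higher in 5 and equal in 26, and in Scn2a it went from 2.12% at the start to 10.97% at the end. Within 1 kb of the start site, only Ank3 and Cacna1a had an H3K36me3 island in any library, and no member had an H3K9me3 island.

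**Figure D3:**
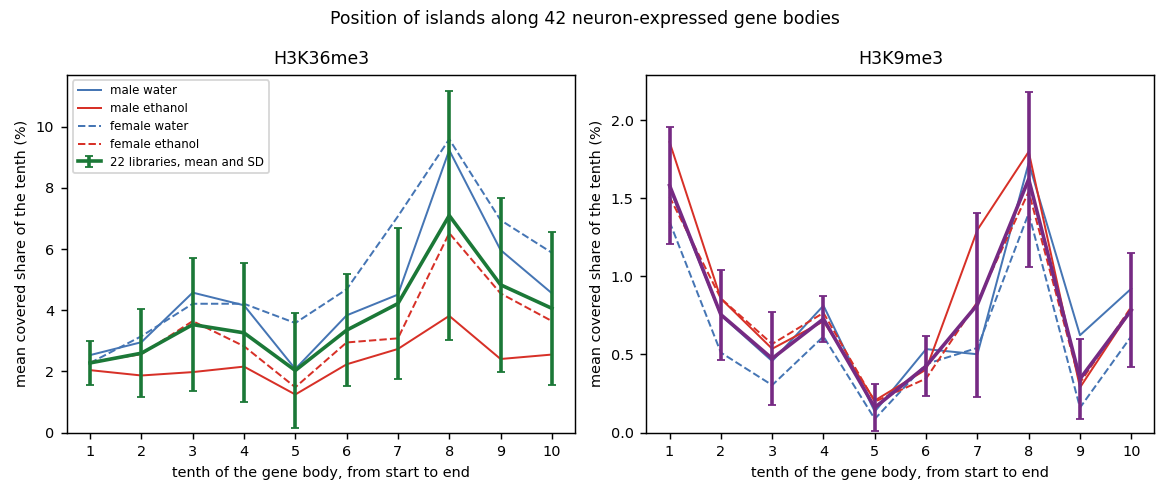
Mean percent of each of 10 bins of the gene body covered by H3K36me3 (left) and H3K9me3 (right), averaged over the 42 members. Thin lines are group means (solid male, dashed female, red ethanol, blue water) and the thick line with whiskers is the mean and SD of 22 libraries. H3K36me3 peaks in bin 8 at 7.10%, and the male ethanol line lies below the male water line in every bin.

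Ethanol was then compared with water within each sex, the question of the study. In males, H3K36me3 coverage of the 42 members averaged 4.44 ± 1.03% with water (n = 5) and 2.30 ± 1.79% with ethanol (n = 6). Members with an island numbered 30 to 36 of 42 in the male water libraries and 12 to 35 in the male ethanol libraries. Male ethanol replicate 5 had 35 such members and a mean coverage of 5.67%, above every male water library. The mean over all protein-coding genes was also lower with ethanol in males, at 1.99 ± 0.856% against 2.88 ± 0.399%. The ratio of the members' mean to that of all genes was 1.05 ± 0.35 with ethanol and 1.53 ± 0.172 with water. In females, mean coverage was 5.16 ± 2.64% with water and 3.36 ± 1.16% with ethanol, with ranges that overlapped (2.68 to 8.52% and 1.37 to 5.00%). In males these values moved with the gene-body share of all H3K36me3 islands. In females, water replicates 2 and 5 had the highest shares (38.8 and 38.2%) and coverages of 7.47 and 8.52%. Ethanol replicate 2 had the lowest share (20.1%) and 1.37%. Between these the order was looser, with 2.68% at a share of 30.4% in water replicate 4 and 3.86% at 26.5% in water replicate 3. The part of this share in the differences was not tested in either sex.

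**Figure D4:**
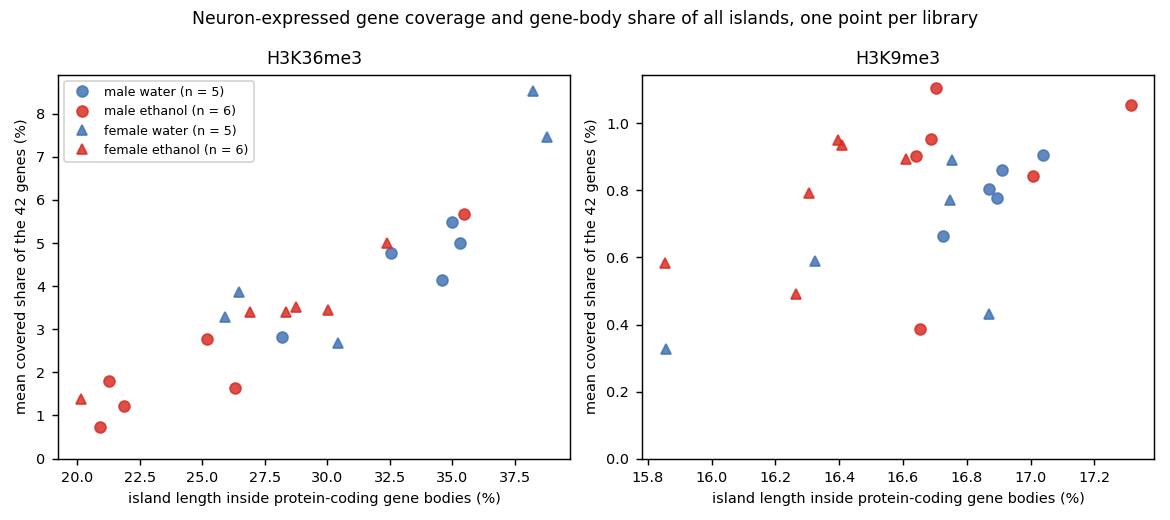
Mean percent of the 42 gene bodies covered (y axis) against the percent of a library's island length that lies in protein-coding gene bodies (x axis), for H3K36me3 (left) and H3K9me3 (right). Each point is a library. For H3K36me3, 5 of 6 male ethanol libraries (red circles) lie at gene-body shares of 20.9 to 26.3%, and replicate 5 lies at 35.5% with the male water libraries.

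Single members were tested on covered percent with limma, adjusted over all genes with an island in that sex. In male H3K36me3, 7 of 37 members tested were lower with ethanol at an unadjusted p of 0.05, and 0 were higher. Of all 11092 genes tested, 8.36% were lower and 9.45% passed in either direction, and 7735 of them had a negative difference. No member passed after adjustment (smallest adjusted p = 0.256), while 10 of all genes did. The median difference was -1.30 points over the members and -0.86 points over all genes, and 31 of 37 members were negative. The 7 were Nsf, Gabbr1, Cacna1a, Ncam1, Dnm1, Kif1a and Shank3.

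Gabbr1 had the widest of these differences. Its H3K36me3 coverage was 15.1, 33.7, 24.1, 24.7 and 33.9% in male water libraries. Of the male ethanol libraries, 5 of 6 had no island and replicate 5 had 30.2%. The difference was -21.3 ± 6.05 points (SE, limma, adjusted p = 0.315). In females the values were 4.12, 40.1, 31.6, 0 and 43.3% with water, and 0, 17.5 and 37.8% as lowest, median and highest with ethanol.

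Nsf was covered in all male water libraries, at 7.86, 5.59, 8.62, 4.38 and 5.76%. Of the male ethanol libraries, 4 had no island, and the others had 1.36% and, in replicate 5, 6.35%. The difference was -5.16 ± 1.31 points (SE, limma, adjusted p = 0.256). Only replicate 5 lay within the male water range.

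Cacna1a had 7.86, 8.58, 8.82, 3.26 and 9.37% in male water libraries. With ethanol the lowest, median and highest male values were 0, 1.87 and 8.26%, the highest again being replicate 5. The difference was -5.06 ± 1.62 points (SE, limma, adjusted p = 0.390). Water replicate 4 was the low value of its group, below replicate 5 of the ethanol group.

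Dnm1, Shank3 and Kif1a lay closer to the threshold. Dnm1 had 9.36, 6.69, 2.23, 3.12 and 10.7% in male water libraries, and 0, 0 and 5.79% as lowest, median and highest with ethanol. It had islands in 5 of 5 male water and 2 of 6 male ethanol libraries, with means of 6.42 ± 3.72% and 1.86 ± 2.88% (limma, adjusted p = 0.490). Shank3, at 5.94, 21.4, 14.8, 6.60 and 9.89% with water and at 0, 0 and 16.2% with ethanol, also had islands in 5 of 5 and 2 of 6, with means of 11.7 ± 6.47% and 3.41 ± 6.48% (limma, adjusted p = 0.524). Kif1a had 3.93, 3.70, 6.24, 3.01 and 3.70% with water and 0, 2.77 and 3.24% with ethanol, with means of 4.12 ± 1.24% and 2.24 ± 1.24% (limma, adjusted p = 0.491). All 3 overlapped between the groups. No member had male ethanol and male water values that did not overlap, where 0.541% of all genes did. The same held for female H3K36me3 (0.117% of all genes) and for H3K9me3 in males (0.0356%) and females (0.14%).

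**Figure D5:**
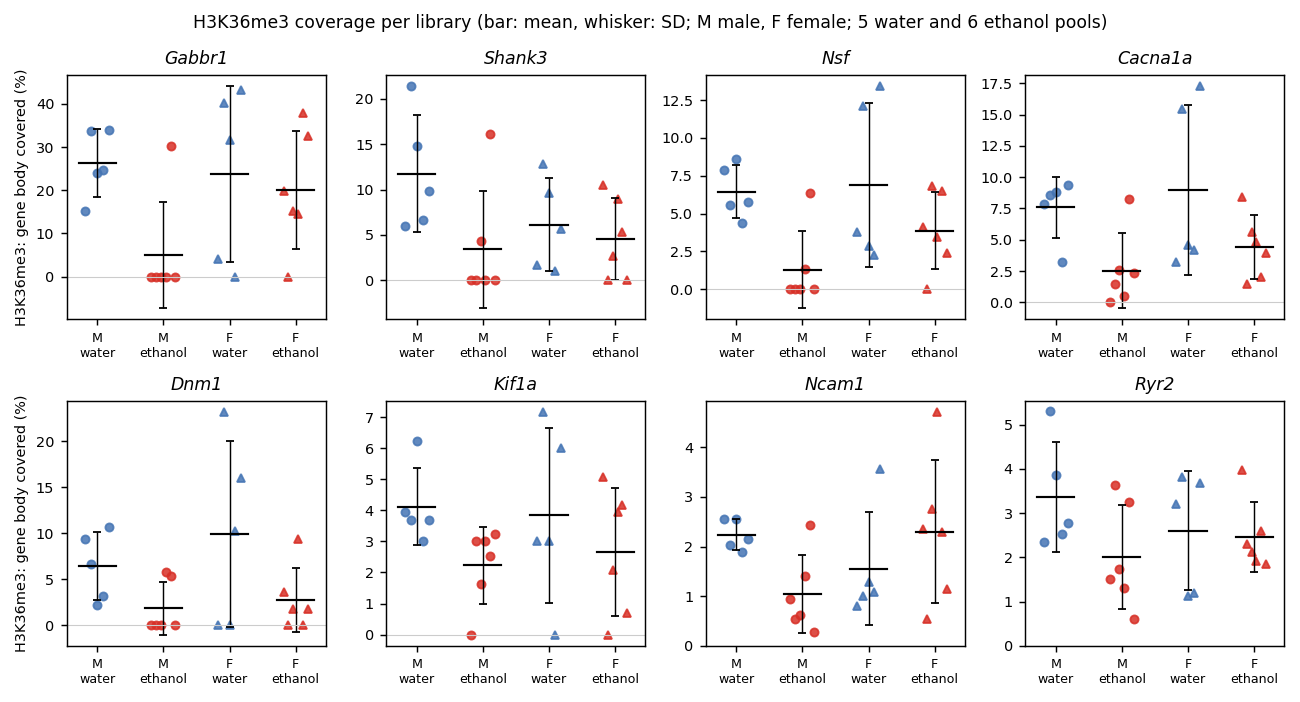
H3K36me3-covered percent of the gene body in each library for 8 members that were lower in male ethanol libraries at an unadjusted p of 0.05 in the test of covered percent or of reads. Blue is water, red ethanol, circles male, triangles female, bars group means and whiskers SD. Male ethanol replicate 5 is the high red circle of Gabbr1 at 30.2% and of Shank3 at 16.2%.

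Island reads over the gene body gave fewer calls. With edgeR's quasi-likelihood test, 2 of 34 members were lower in male ethanol libraries at an unadjusted p of 0.05, against 0.899% of 5783 genes that were lower and 3.06% in either direction. The direction over all genes depended on the scaling. It was 125 higher and 52 lower here, 53 and 78 without edgeR's TMM scaling, and 84 and 130 with DESeq2. In each, 2 members were lower. No gene passed after adjustment with edgeR, while DESeq2 called 22 genes, none of them a member. The median log2 fold change was -0.77 over the members, 28 of which were negative, and -0.51 over all genes. These medians depended on the setting. They were -1.26 and -0.58 without ethanol replicate 5, and -0.15 and -0.02 as reads over input (limma). Over genes with an island in all libraries (10 members) they were -0.41 and 0.02. Ncam1 had 81.5, 52.5, 54.7, 50.6 and 60.6 island reads per M in male water libraries. With ethanol its lowest, median and highest were 13.7, 22.2 and 60.3, the highest being replicate 5, and edgeR put its log2 fold change at -1.05 ± 0.43 (SE, adjusted p = 0.984). Its covered percent was also lower at the unadjusted threshold (limma, -1.20 points, adjusted p = 0.490). Ryr2 had 144, 246, 199, 130.02 and 130.07 reads per M with water and 32.7, 80.3 and 162 as lowest, median and highest with ethanol, and edgeR gave -0.76 ± 0.34 (SE, log2, adjusted p = 0.984). Cacna1a came next at -1.52 ± 0.82 (SE, edgeR, adjusted p = 0.984).

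How many members passed depended on single libraries. Without male ethanol replicate 5, 12 members were lower at an unadjusted p of 0.05 by covered percent and 6 by reads, where 16.7 and 9.61% of all genes passed. After adjustment by limma, Gabbr1 (-26.3 points, adjusted p = 0.00714) and Nsf (-6.17 points, adjusted p = 0.0123) then passed by covered percent, as did 108 of all 10680 genes. By reads, Gabbr1 passed with edgeR (adjusted p = 0.0169), as did 180 of all 5087 genes. Gabbr1 had no island in any of the 5 remaining ethanol libraries. Replicate 5 was the only male ethanol library with one, so both Gabbr1 calls follow from leaving it out. For Nsf, replicate 5 was the only male ethanol library within the male water range, so that call follows from leaving it out too. The Gabbr1 and Nsf calls are no separate evidence of a difference. Without the ethanol replicates 1, 2, 3 or 6, or the water replicates 1, 3 or 5, 3 or 4 members passed by covered percent, where 6.47 to 8.96% of all genes did. Without water replicate 4, 9 members passed by covered percent, where 11.99% of all genes did. By reads, 1 member (2.08 to 3.64% of all genes) passed without ethanol replicate 2, 3, 4 or 6, or without water replicate 1, 2, 3 or 5. When covered percent was scaled to the same mean in each library, 4 members were lower in male ethanol libraries at the unadjusted threshold (Gabbr1, Nsf, Cacna1a and Shank3) and Scn1a was higher (5.46 points, limma, adjusted p = 0.312). In this scaling 12.2% of all genes passed, and the median difference was -0.57 points over the members and -0.37 over all genes.

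In females, 3 of 39 members had lower H3K36me3 coverage with ethanol at an unadjusted p of 0.05, against 4.07% of 11922 genes that were lower and 4.41% in either direction. Bsn had 2.54, 8.48, 5.30, 8.48 and 12.1% with water, and 1.91, 2.65 and 5.51% as lowest, median and highest with ethanol (-4.20 ± 1.55 points, SE, limma, adjusted p = 0.827). Kif5a had 12.2, 23.4, 11.7, 11.2 and 20.7% with water and 1.59, 9.83 and 12.2% with ethanol, in ranges that overlapped. It averaged 15.8 ± 5.76% with water and 8.94 ± 4.04% with ethanol (limma, adjusted p = 0.827). Slc17a7 had islands in 3 of 5 water and 1 of 6 ethanol libraries (27.9, 0, 26.2, 0 and 18.04% with water, 8.20% in the 1 ethanol library, limma, adjusted p = 0.827). No member passed by reads with edgeR at the unadjusted threshold (0 of 34, 0.458% of all genes) or with DESeq2 (1.07% of all genes). The smallest p was that of Ncam1, at 0.73 ± 0.49 on the log2 scale (SE, edgeR, adjusted p = 1.00), before Bsn (-0.53 ± 0.38) and Cacna1a (-0.71 ± 0.52), both at the same adjusted p. When covered percent was scaled to the same mean in each library, no female member passed, where 3.27% of all genes did. Without water replicate 1, 5 members passed by covered percent, where 7.84% of all genes did. Without water replicate 5 or ethanol replicate 2, 3 or 6, 1 passed, and without water replicate 2 or ethanol replicate 4 or 5, 2 passed, where 2.89 to 3.79% of all genes did. By reads, Ncam1 passed unadjusted without water replicate 5 (0.797% of all genes, log2 fold change 1.26, edgeR, adjusted p = 1.00).

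H3K9me3 of these genes showed no adjusted difference between treatments. Mean coverage was 0.803 ± 0.0920% with water and 0.875 ± 0.258% with ethanol in males, and 0.603 ± 0.234% and 0.775 ± 0.194% in females. With edgeR, 0 of 15 members passed at an unadjusted p of 0.05 in males (1.79% of all genes) and 0 of 15 in females (2.22%). DESeq2 called no member at that threshold either (2.80% of all genes in males). The smallest male p-values with edgeR were those of Map2 (log2 fold change -0.23 ± 0.16, SE), Ank2 (-0.20 ± 0.14) and Celf2 (0.11 ± 0.09), each at an adjusted p of 1.00. In females they were those of Ank3 (0.35 ± 0.19), Ryr2 (-0.25 ± 0.20) and Scn2a (0.64 ± 0.76), also at an adjusted p of 1.00. Without female water replicate 5, Ank3 (log2 fold change 0.55, edgeR, adjusted p = 0.811) and Scn8a (adjusted p = 0.828) passed unadjusted, as did 4.79% of all genes.

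By covered percent, 1 of 24 members passed unadjusted in male H3K9me3 (1.99% of all genes, 1.05% in the higher direction). This was Nefm, higher with ethanol by 5.22 ± 2.34 points (SE, limma, adjusted p = 0.943), with the library values given above. Leaving out 1 library at a time, Nefm passed only without ethanol replicate 1 or 6 or water replicate 4. In females 0 of 21 members passed (limma, 3.25% of all genes). Without female water replicate 5, Pclo passed there (0.97 points, limma, adjusted p = 0.804), as did 4.42% of all genes.

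Whether the treatment difference itself differed between the sexes was tested as an interaction, coded as the female minus the male difference. For H3K36me3 reads, 1 of 36 members passed at an unadjusted p of 0.05 (edgeR, 7.98% of all genes). Ncam1 was lower with ethanol in males (27.0 ± 17.3 against 59.97 ± 12.6 reads per M) and not lower in females (55.5 ± 27.8 against 37.4 ± 28.2), an interaction of 1.80 ± 0.68 (SE, log2, edgeR, adjusted p = 0.618). Camk2a came next (-4.92 ± 2.65, SE, edgeR, adjusted p = 0.734), with islands in 7 of 22 libraries. All 6 female ethanol libraries had no Camk2a island, so the fitted value is no measure of size. DESeq2 gave Camk2a an adjusted p of 0.000280, in a fit that called 181 of 8454 genes. For covered percent, Ncam1 alone passed (1.95 points, limma, adjusted p = 0.882, 3.28% of all genes), before Slc17a7 (-10.4 points, adjusted p = 0.882).

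For H3K9me3 reads, 1 of 16 members passed the interaction test unadjusted (edgeR, 6.56% of all genes). Rbfox3 had H3K9me3 islands in 0 of 5 male water, 2 of 6 male ethanol, 2 of 5 female water and 3 of 6 female ethanol libraries (edgeR, adjusted p = 0.751). Ank2 came next (0.29 ± 0.18, SE, log2, edgeR, adjusted p = 1.00). For covered percent 1 of 25 passed, Scn8a (0.67 points, limma, adjusted p = 0.915, 3.05% of all genes), whose recurrent segment lay below the input level, before Map2 (0.57 points). Between the sexes, with treatment as a term, no member passed unadjusted for H3K36me3 (0 of 35, edgeR, 3.1% of all genes) or H3K9me3 (0 of 16, 12.3% of all genes). The smallest p was that of Camk2a for H3K36me3 (edgeR, adjusted p = 1.00).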

How the data were processed

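Per the labels and the study's methods, the authors pooled PFC of 3 mice, ran 8 immunoprecipitations per library and combined them, trimmed reads with cutadapt, aligned them with Bowtie2 2.4.1 (submitters' processing notes) to GRCm38/mm10 and called islands with SICER against the input of the pool (200 bp windows, gap 400 bp for H3K9me3 and 600 bp for H3K36me3). The methods describe this for H3K9me3, and keep only reads that mapped once. For H3K36me3, read filters were not given in the sources used. The deposited lists give, per island, raw read counts of ChIP and input, a p-value with its FDR, and a ratio (fold) of ChIP over scaled input. The authors deposited 1 list per library, and replicates were not pooled. Columns are unlabelled, and their order was taken from SICER's format and checked on the values.

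Covered percent and island reads were computed per protein-coding gene body from all listed islands, reads being divided among bodies by the share of the island that overlaps. Reads per M are per 1000000 island reads. Low-count genes were filtered with edgeR's filterByExpr. Ethanol was compared with water per mark and sex by edgeR 4.0.16 (quasi-likelihood, TMM) on reads and by limma 3.58.1 on covered percent. The interaction with sex, the sexes, and the marks within pools were tested likewise. P-values were adjusted by Benjamini-Hochberg over all genes tested, and 0.05, unadjusted unless stated, was the threshold. A percentage of all genes beside a count is the share passing the same threshold. R 4.3.3, Python 3.11.15, pandas 2.3.3 and DESeq2 1.42.0 were used.

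On simulated data, 4-fold changes were recovered after adjustment in 11.5% (male, 5783 genes) and 13% (female, 6557 genes) of 200 changed genes for H3K36me3. At 2-fold, H3K36me3 recovery was 0% in males and 1% in females. For H3K9me3, 2-fold changes were recovered in 56.5% (male, 3566 genes) and 47.5% (female, 3562 genes). These rates describe the simulated counts only. Groups and replicate numbers were taken from the sample labels. Library values are given for the 3 members of highest median H3K36me3, for the lowest (9 tie at a median of 0, of which Nrgn, Nefl and Thy1 are at 0 in every library), the 5 of highest H3K9me3, and members past the threshold. Fits are given also for the 3 members of smallest p in each edgeR treatment fit and the 2 in each interaction fit. The members and lists were chosen with earlier results of these data known. Equal-mean scaling and the exclusion of H3K9me3 bases were added after seeing the data.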

Additional observations from a re-analysis of the deposited data

Results flagged for a closer look

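Groups of 5 or 6 libraries were examined for a single library far from the others, in 58 groups of values, and 10 stood out. Chance alone gives about 1 in 20 for independent groups. These groups share libraries and some hold mostly values of 0, so the count cannot be set against that rate. For H3K36me3 coverage, male ethanol replicate 5 was the high library in 4 genes. It had 30.2% in Gabbr1, where the nearest library had 0, and 16.2% in Shank3, where the nearest had 4.29%. It had 8.26% in Cacna1a (nearest 2.62%) and 6.35% in Nsf (nearest 1.36%). Among male water libraries, replicate 4 was low in Cacna1a at 3.26% (nearest 7.86%) and replicate 3 was high in Kif1a at 6.24% (nearest 3.93%). Female ethanol replicate 1 had 8.20% in Slc17a7 and the other 5 had 0. For H3K9me3, the members' mean coverage was low in male ethanol replicate 1 at 0.385% (nearest 0.845%). Pclo was high in male ethanol replicate 4 at 5.45% (nearest 3.90%) and in female water replicate 5 at 5.11% (nearest 2.75%).

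In 4 cases the treatment difference itself differed between the sexes at an unadjusted p of 0.05, given as the female minus the male difference. For H3K36me3 of Ncam1 it was 1.80 on the log2 scale of reads (edgeR, adjusted p = 0.618) and 1.95 percentage points of coverage (limma, adjusted p = 0.882). For H3K9me3 it was fitted at -6.50 in reads of Rbfox3 (edgeR, adjusted p = 0.751), where 15 of 22 libraries, all 5 male water libraries among them, had no island, so that the value depends on the prior count and is no bound. It was 0.67 points of coverage in Scn8a (limma, adjusted p = 0.915).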

How the results depend on the processing

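Counts are members past the unadjusted threshold. Reads over input were tested with limma in place of edgeR. The replicate block also left out ethanol replicate 6, and for reads its low-count filter kept more genes, so neither setting changed 1 choice alone. For H3K36me3 reads in males (2 members), islands at an FDR of 0.01 or 1e-05 gave 0 (0.590 and 0.868% of all genes). Reads over input gave 5 (12.5%), and a replicate block 10 (6.95% of 8912 genes, and 3 members among 45 genes after adjustment). Leaving out 1 library gave 1 to 6 (2.08 to 9.61%). In females (0 members), no filter gave 1 (10.9% of all genes), the replicate block 2 (1.24%), and leaving out 1 library 0 to 1 (0.397 to 1.84%). For H3K9me3 reads (0 in each sex), no filter gave 4 in males (8.21% of all genes) and 2 in females (10.9%), reads over input 1 in each (4.88 and 5.84%), and leaving out 1 library 0 to 2 in females. For H3K36me3 coverage in males (7), an FDR of 1e-05 gave 3 (6.38% of all genes) and the replicate block 3 (7.16%). Without ethanol replicate 6 and with no block it was 4 (7.25%). Leaving out 1 library gave 3 to 12 (6.47 to 16.7%). In females (3), equal-mean scaling gave 0 (3.27% of all genes) and the replicate block 1 (2.36%). Without ethanol replicate 6 and with no block it was also 1 (3.61%). Leaving out 1 library gave 1 to 5 (2.89 to 7.84%). For H3K9me3 coverage in males (1), the arcsine scale (2.08% of all genes) and an FDR of 1e-05 (2.01%) gave 0. Equal-mean scaling and a joint fit of both sexes also gave 0. Leaving out 1 library gave 0 to 1, as it did in females (0). For the interaction in reads (1 per mark), DESeq2 gave 2 for H3K36me3 (4.21% of all genes) and 0 for H3K9me3. Mean coverage of H3K36me3 (3.73%) was 1.60% at an FDR of 1e-05, and that of H3K9me3 (0.769%) was 0.391% at 0.01 and 0.148% at 1e-05. The mark difference of Celf2 turned from -0.94 points to 0.14 on the log2 scale of reads per M per kb. The causes were not tested. Of the other single-gene treatment and interaction results, 134 of 228 kept their side of the threshold, 94 lost it and 0 reversed. Correlations of same-numbered libraries were -0.30 to 0.08, and replicate numbers were not taken as pairs. In female H3K9me3, water replicates 1, 2 and 3 did match the same-numbered ethanol library best (r 0.082, 0.045 and 0.025). DESeq2 called 22 genes in male H3K36me3 reads after adjustment, against 0 with edgeR. Mark outside the listed islands was not measured.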
